A study of Drosophila melanogaster with 30 samples.

Results

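The genes described here make, store, take up and conjugate the monoamines of the fruit fly Drosophila melanogaster. They are ple, Ddc, Pu, e, b, Vmat, DAT, SerT, Tdc2 and Tbh, matched by symbol and letter case in a table of read counts per gene, and all 10 were found among its 17559 genes. The study asked how the RNA of heads and bodies differs with age and with sleep that has become fragmented at old age. Its 30 libraries of polyA RNA form 6 groups of 5. The aged flies with sleep fragmentation (aged SF) and the aged flies without it (aged NSF) were 25 days old, and the young flies were 5 days old and slept normally. All were adult males of the Cantonized w1118 strain and carried no other allele or treatment in the labels. The w1118 strain lacks the product of the white gene, a pigment-precursor transporter of the eye. Heads and bodies were isolated singly, so each library stands for 1 head or 1 body, and aged flies were sorted into SF and NSF by their own sleep record before extraction.

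Dopamine is made in 2 steps: ple encodes tyrosine hydroxylase, which turns tyrosine into L-DOPA and limits the rate, and Ddc encodes the decarboxylase that turns L-DOPA into dopamine and 5-hydroxytryptophan into serotonin. Pu encodes GTP cyclohydrolase I, the first enzyme on the way to tetrahydrobiopterin, the cofactor that tyrosine hydroxylase needs. Octopamine, the insect counterpart of noradrenaline, is made from tyrosine by the neural tyrosine decarboxylase Tdc2 and the tyramine beta-hydroxylase Tbh. Vmat loads monoamines into vesicles, and DAT and SerT return dopamine and serotonin from the extracellular space into cells. In flies dopamine promotes wakefulness, and DAT mutants are known for short sleep. Outside neurons, ple and Ddc also supply the epidermis with catecholamines that tan the cuticle, where e (ebony) couples dopamine to beta-alanine and b (black) makes beta-alanine by decarboxylating aspartate. In the head, e also acts in glia of the visual system, where it conjugates histamine.

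A head library held 1685034 to 3597530 counted reads and a body library 2458538 to 8060238. The markers fitted the labelled tissues: 6 photoreceptor genes summed to between 29304 and 55921 CPM, the read count scaled to library size and composition (TMM), in heads, while the 6 testis genes summed to at most 9.56 CPM there. A pair of bodies stood apart. Aged NSF body 1 had a testis sum of 201 CPM, against 1439 to 3528 CPM in the other 14 bodies, and aged NSF body 2 had a photoreceptor sum of 683 CPM, against 36.3 to 87.5 CPM in the others. Body results are therefore also given without both. In heads, all 5 muscle markers were lower in each aged group than in young flies; their sum was 1139 to 1545 CPM in aged SF heads, 1368 to 1749 CPM in aged NSF heads and 2834 to 3748 CPM in young heads. The fat body marker sum was 961 to 3059 CPM in aged SF, 799 to 2471 CPM in aged NSF and 4153 to 7729 CPM in young heads. Whether a changed share of cell types contributes to the changes below was not tested.

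In heads, the gene of the enzyme that starts dopamine synthesis and that of the enzyme that conjugates dopamine rose with age in both kinds of sleeper. ple rose 3.68-fold in aged SF and 4.13-fold in aged NSF heads over young heads, and e rose 3.28-fold and 5.42-fold in the same groups, while SerT fell in both and Tdc2 fell in aged SF heads. The middle enzyme Ddc did not pass the test in either, nor did Pu, b, Tbh, Vmat or DAT. Among the 10 genes, 2 were higher and 2 lower in aged SF over young heads, where 25.2% of 9088 tested genes were called in either direction, 13% higher and 12.2% lower. In aged NSF over young heads 2 were higher and 1 lower, with 22.8% of genes called, 11.4% higher and 11.5% lower. A gene was called at a Benjamini-Hochberg adjusted p under 0.05 in edgeR's quasi-likelihood test, fitted on all genes. Read against these shares, the members' counts are near the background and do not set the 10 genes apart. With 10 genes they cannot show that the set follows the background either. The median log2 change of the 10 genes was -0.26 in aged SF and -0.14 in aged NSF over young heads. Over all tested genes the medians were -0.0027 and 0.016. The 2 comparisons share the young heads.

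For ple (FBgn0005626, 3L:6713356-6719525 in dm6, minus strand), the tyrosine hydroxylase gene, the 5 aged SF heads had 216, 321, 209, 234 and 295 CPM. The 5 aged NSF heads had 435, 445, 156, 148 and 247 CPM, and the young heads had 62.9, 72.2, 47.9, 112 and 51.3 CPM. Every aged head was above every young head. Aged NSF heads 1 and 2 were the highest of all 15, and the aged NSF heads spread the most. The means were 255 ± 49.7 CPM in aged SF, 286 ± 146 CPM in aged NSF and 69.2 ± 25.7 CPM in young heads (SD, n = 5 each). The log2 change was 1.88 ± 0.35 (SE) in aged SF over young heads, adjusted p = 0.00143, and 2.05 ± 0.35 in aged NSF over young heads, adjusted p = 0.000851. Both calls held in every alternative run, with log2 changes of 1.78 to 2.12 for aged SF and 1.84 to 2.29 for aged NSF heads.

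Ddc (FBgn0000422, 2L:19116483-19120306, minus strand), which acts directly after ple, had 214, 338, 284, 402 and 321 CPM in aged SF heads. It had 423, 474, 269, 395 and 513 CPM in aged NSF heads and 334, 360.5, 426, 379 and 351 CPM in young heads. The 3 groups overlapped. The log2 difference was -0.25 ± 0.16 in aged SF over young heads (adjusted p = 0.288; 95% interval -0.58 to 0.08) and 0.16 ± 0.16 in aged NSF over young heads (adjusted p = 0.516; interval -0.16 to 0.49). These intervals exclude a rise of the size seen for ple. So ple was called in both aged groups and the gene of the next enzyme in neither.

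Pu (FBgn0003162, 2R:21175315-21182608, plus strand), which starts the cofactor branch, had 135, 454, 192, 223 and 162 CPM in aged SF heads, 214, 202, 136, 164 and 319.8 CPM in aged NSF heads and 349, 388, 385, 359 and 349 CPM in young heads. All 5 aged NSF heads lay below all young heads, and so did 4 of 5 aged SF heads; aged SF head 2 was the highest of the 15. Young heads were close together, at 366 ± 19.1 CPM. The log2 difference in aged NSF over young heads was -0.82 ± 0.30, adjusted p = 0.0649, and that in aged SF over young heads was -0.65 ± 0.30, adjusted p = 0.134, so neither was called. Without aged SF head 2 both were called, with a log2 difference of -1.04 in aged SF (adjusted p = 0.000312) and an unmoved -0.82 in aged NSF heads (adjusted p = 0.00126). With all libraries kept, DESeq2 and limma voom called both, at adjusted p = 0.0490 and 0.0158 for aged SF heads and 0.0101 and 0.00838 for aged NSF heads. Leaving out aged SF head 1 (0.0395) or aged NSF head 5 (0.0210), or fitting only the compared groups (0.00205), also gave a call in aged NSF heads; over all alternatives the adjusted p ran from 0.00126 to 0.137 there and from 0.000312 to 0.252 in aged SF heads.

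**Figure D1:**
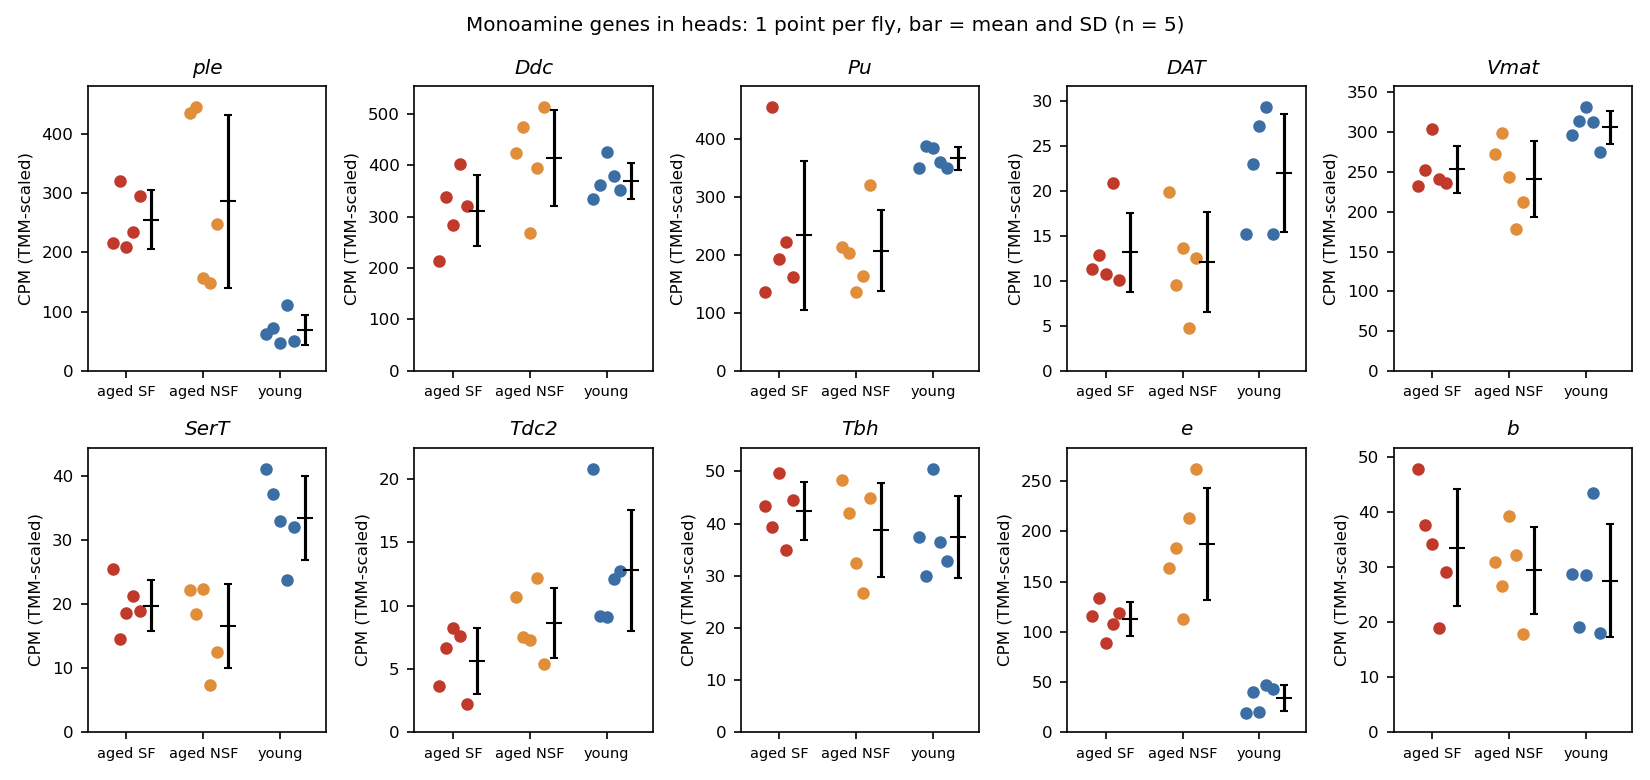
TMM-scaled CPM of the 10 genes in single heads, 1 panel per gene, with aged SF, aged NSF and young heads along the x axis; each point is 1 head, and the bar is the mean with 1 SD. For ple and e all 10 aged heads sit above all 5 young heads, and for Pu aged SF head 2 at 454 CPM sits far above the other 4 of its group at 135 to 223 CPM.

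The conjugating enzyme gene e (FBgn0000527, 3R:21229839-21237177, minus strand) had 116, 134, 88.7, 108 and 119 CPM in aged SF heads. Aged NSF heads had 164, 183, 113, 213 and 262 CPM, and young heads had 19.0, 40.0, 20.7, 47.0 and 43.5 CPM. All aged heads were above all young heads, and aged NSF head 5 was the highest. The log2 change was 1.71 ± 0.25 in aged SF over young heads, adjusted p = 5.35e-05, and 2.44 ± 0.25 in aged NSF over young heads, adjusted p = 1.38e-06. Both were called in every alternative. The gene of the beta-alanine supplier b (FBgn0000153, 2L:13821248-13823979, plus strand) had 19.0 to 47.9 CPM in aged SF heads, 17.9 to 39.4 CPM in aged NSF heads and 18.05 to 43.5 CPM in young heads. These ranges overlapped almost wholly, and the log2 difference from young heads was 0.30 ± 0.26 in aged SF (adjusted p = 0.459) and 0.12 ± 0.26 in aged NSF heads (adjusted p = 0.799). Markers of cuticle and epidermis, a tissue that uses e and ple, are given beside these changes: 4 of 6 tested markers were higher and 1 lower in each aged group over young heads, and their summed level was 184 to 261 CPM in aged SF, 98.6 to 230 CPM in aged NSF and 132 to 179 CPM in young heads, where 2 of the 8 markers were at 0. The 6 glia markers, none at 0, summed to 1488 to 1667 CPM in aged SF, 1015 to 1559 CPM in aged NSF and 1727 to 2210 CPM in young heads, with 2 lower and 1 higher in aged SF and 3 lower and 1 higher in aged NSF over young heads. The part of these tissues in the rise of e and ple was not tested.

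Of the transporters, SerT (FBgn0010414, 2R:24404595-24411074, minus strand), which takes up serotonin, had 25.6, 14.6, 18.6, 21.2 and 19.0 CPM in aged SF heads. It had 22.2, 18.4, 22.4, 7.40 and 12.6 CPM in aged NSF heads and 41.2, 37.2, 33.0, 23.8 and 31.99 CPM in young heads. Every aged NSF head was below every young head, while aged SF head 1 overlapped with young head 4. SerT fell by 1.00 ± 0.26 on the log2 scale in aged NSF over young heads, adjusted p = 0.00615. It fell by 0.76 ± 0.26 in aged SF over young heads, adjusted p = 0.0340, a call that was lost, at adjusted p = 0.0513 to 0.0903, without any 1 of young heads 1, 2, 3 and 5 or aged SF heads 2, 3, 4 and 5. Neither call passes when a change of at least 2-fold is also required. SerT and the octopamine genes are expressed in few neurons, and in whole heads fewer such cells and less RNA per cell cannot be told apart. Among 7 general neuron markers, 3 (Syt1, nSyb and futsch) were lower in both aged groups and the other 4 were not called.

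DAT (FBgn0034136, 2R:16558567-16565238, minus strand), which takes up dopamine, had 11.4, 12.8, 10.8, 20.9 and 10.1 CPM in aged SF heads, 19.9, 9.55, 13.6, 4.81 and 12.6 CPM in aged NSF heads and 15.3, 23.1, 27.2, 29.3 and 15.2 CPM in young heads. The groups overlapped. The log2 difference was -0.72 ± 0.32 in aged SF (adjusted p = 0.105) and -0.86 ± 0.32 in aged NSF over young heads (adjusted p = 0.0579), at 13 to 83 reads per library. DESeq2 (0.0396) and limma voom (0.0469) called DAT lower in aged NSF heads, as did the fits without young head 1 (0.0434), young head 5 (0.0442) or aged NSF head 1 (0.0200), within a range of 0.0200 to 0.156 over all alternatives; without aged SF head 4 it was called lower in aged SF heads (0.0481). Vmat (FBgn0260964, 2R:13513132-13534251, minus strand), the vesicular loader, had 233 to 305 CPM in aged SF, 178 to 299 CPM in aged NSF and 275 to 332 CPM in young heads. Its log2 difference was small, -0.27 ± 0.13 in aged SF (adjusted p = 0.146) and -0.34 ± 0.13 in aged NSF over young heads (adjusted p = 0.0670). It was called only without aged NSF head 2 (-0.42, adjusted p = 0.0330) or with the replicate number as a block (adjusted p = 0.0378), both in aged NSF heads. CG13330, which overlaps Vmat on the opposite strand, was lower in heads by -0.89 in aged SF (adjusted p = 0.0208) and -0.78 in aged NSF over young heads (adjusted p = 0.0429), and its part in these values was not tested.

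In the octopamine branch, Tdc2 (FBgn0050446, 2R:6684745-6689974, minus strand) had 3.65, 6.64, 8.22, 7.59 and 2.20 CPM in aged SF heads. Aged NSF heads had 10.7, 7.50, 7.27, 12.2 and 5.38 CPM, and young heads had 20.8, 9.16, 9.07, 12.1 and 12.7 CPM. All aged SF heads were below all young heads, and the aged NSF heads overlapped with both. Tdc2 fell by 1.16 ± 0.39 on the log2 scale in aged SF over young heads, adjusted p = 0.0285, on 5 to 20 reads per aged SF head. That call was lost without young head 1 (adjusted p = 0.109), aged SF head 1 (0.0715) or aged SF head 5 (0.0757). In aged NSF over young heads the log2 difference was -0.56 ± 0.38, adjusted p = 0.317. Tbh (FBgn0010329, X:7995697-8027394, plus strand), which takes the next step to octopamine, had 34.9 to 49.8 CPM in aged SF, 26.6 to 48.2 CPM in aged NSF and 30.0 to 50.5 CPM in young heads, with log2 differences from young heads of 0.19 ± 0.20 in aged SF (adjusted p = 0.532) and 0.06 ± 0.20 in aged NSF heads (adjusted p = 0.873).

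The comparison of aged SF with aged NSF heads asks which RNA levels go with fragmented sleep at one age. None of the 10 genes was called there, and 0.253% of all tested genes were, 0.22% higher and 0.033% lower. DESeq2 and limma voom called none of the 10 either, and 2 of the 10 had an unadjusted p under 0.05. These were e, at 113 ± 16.6 CPM in aged SF and 187 ± 55.8 CPM in aged NSF heads (log2 -0.72 ± 0.24, adjusted p = 0.294), and Ddc, at 312 ± 69.5 CPM in aged SF and 415 ± 93.4 CPM in aged NSF heads (log2 -0.41 ± 0.16, adjusted p = 0.395; SD, n = 5 each). For e, 2 of 5 aged SF heads were below every aged NSF head, and the lowest aged NSF head, at 113 CPM, lay within the aged SF range. In the authors' deposited table of this comparison, e is listed with a log2 change of -0.62 and a q of 0.0400. With the replicate number as a block, e was lower by a log2 of -0.68, adjusted p = 0.0416; over all alternatives its adjusted p ran from 0.0416 to 0.610, with DESeq2 at 0.127. The widest and narrowest of the other intervals show what could not be seen: for ple -0.89 to 0.55, for Tdc2 -1.42 to 0.20, and for Vmat -0.20 to 0.35 on the log2 scale.

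Ddc and Pu rose with age in bodies of both kinds of sleeper, e rose in aged NSF bodies, and Vmat and DAT fell in aged NSF bodies, while ple was not called. Of 9 tested members, 2 were higher and none lower in aged SF over young bodies, where 14.4% of 12009 genes were called, 11.1% higher and 3.26% lower. In aged NSF over young bodies 3 were higher and 2 lower, with 41.1% of genes called, 21.7% higher and 19.4% lower. Tdc2 was too low to test in bodies, at 0 to 7 reads per library. With DESeq2's size factors (RLE) in place of TMM, the share of higher genes among those called in aged SF over young bodies was 66.6%, against 77.4% with TMM.

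For ple, aged SF bodies had 38.9, 32.7, 31.8, 81.1 and 68.0 CPM, aged NSF bodies had 53.7, 84.1, 35.1, 17.1 and 53.2 CPM, and young bodies had 37.5, 24.4, 21.3, 81.1 and 58.3 CPM. The groups overlapped throughout. The log2 difference was 0.19 ± 0.43 in aged SF (adjusted p = 0.783; interval -0.71 to 1.10) and 0.13 ± 0.43 in aged NSF over young bodies (adjusted p = 0.827; interval -0.78 to 1.04), and both changed sign when single bodies were left out.

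Ddc had 42.9, 71.6, 41.7, 207 and 136 CPM in aged SF bodies, 135, 228, 60.6, 128 and 274 CPM in aged NSF bodies and 41.9, 33.9, 30.4, 44.3 and 40.3 CPM in young bodies. Every aged NSF body was above every young body, and aged SF bodies 1 and 3 lay within the young range. Ddc rose by a log2 of 2.11 ± 0.45 in aged NSF over young bodies, a 4.33-fold change, adjusted p = 0.00252. It rose by 1.39 ± 0.44 in aged SF over young bodies, 2.62-fold, adjusted p = 0.0462. The call in aged SF bodies depended on the setting: it was lost with RLE scaling (0.0603), without a filter (0.0568), in limma voom (0.0501), with the replicate number as a block (0.0549), and, at adjusted p = 0.0541 to 0.153, when any 1 of the 5 young bodies, aged SF bodies 2, 4 and 5 or aged NSF bodies 1, 2 and 4 was left out; without aged SF body 4 the log2 change was 0.93.

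Pu had 32.7, 156, 85.2, 162 and 91.3 CPM in aged SF bodies, 99.6, 129, 64.7, 68.8 and 137 CPM in aged NSF bodies and 33.3, 24.4, 24.7, 37.1 and 36.9 CPM in young bodies. Aged SF body 1 lay within the young range and the other 9 aged bodies were above all young bodies. The rise was 3.37-fold in aged SF (log2 1.75 ± 0.35, adjusted p = 0.00415) and 3.19-fold in aged NSF over young bodies (log2 1.68 ± 0.35, adjusted p = 0.00241), and both calls held in every alternative. The conjugating enzyme gene e had 7.18, 8.69, 7.14, 43.1 and 28.6 CPM in aged SF bodies, 10.8, 54.5, 13.7, 22.1 and 66.3 CPM in aged NSF bodies and 5.53, 8.71, 5.19, 12.7 and 9.11 CPM in young bodies. In aged NSF bodies it rose by a log2 of 2.03 ± 0.60, adjusted p = 0.0163, while in aged SF bodies the difference of 1.22 ± 0.60 was not called (adjusted p = 0.193). Aged SF bodies 4 and 5 and aged NSF bodies 5 and 2 led their groups in both Ddc and e, and aged NSF bodies 5 and 2 also led in Pu. The 8 cuticle and epidermis markers summed to 64.7 to 86.9 CPM in aged SF, 44.9 to 83.5 CPM in aged NSF and 55.99 to 105 CPM in young bodies; 1 of the 8 was at 0 in aged SF bodies. Of 6 tested, 3 were higher and 1 lower in aged SF and 2 higher and 2 lower in aged NSF over young bodies. Hemocyte markers summed to 59.8 to 79.4 CPM in aged SF, 49.3 to 117 CPM in aged NSF and 82.5 to 143 CPM in young bodies. The part of either tissue in the rise of Ddc, Pu and e was not tested.

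**Figure D2:**
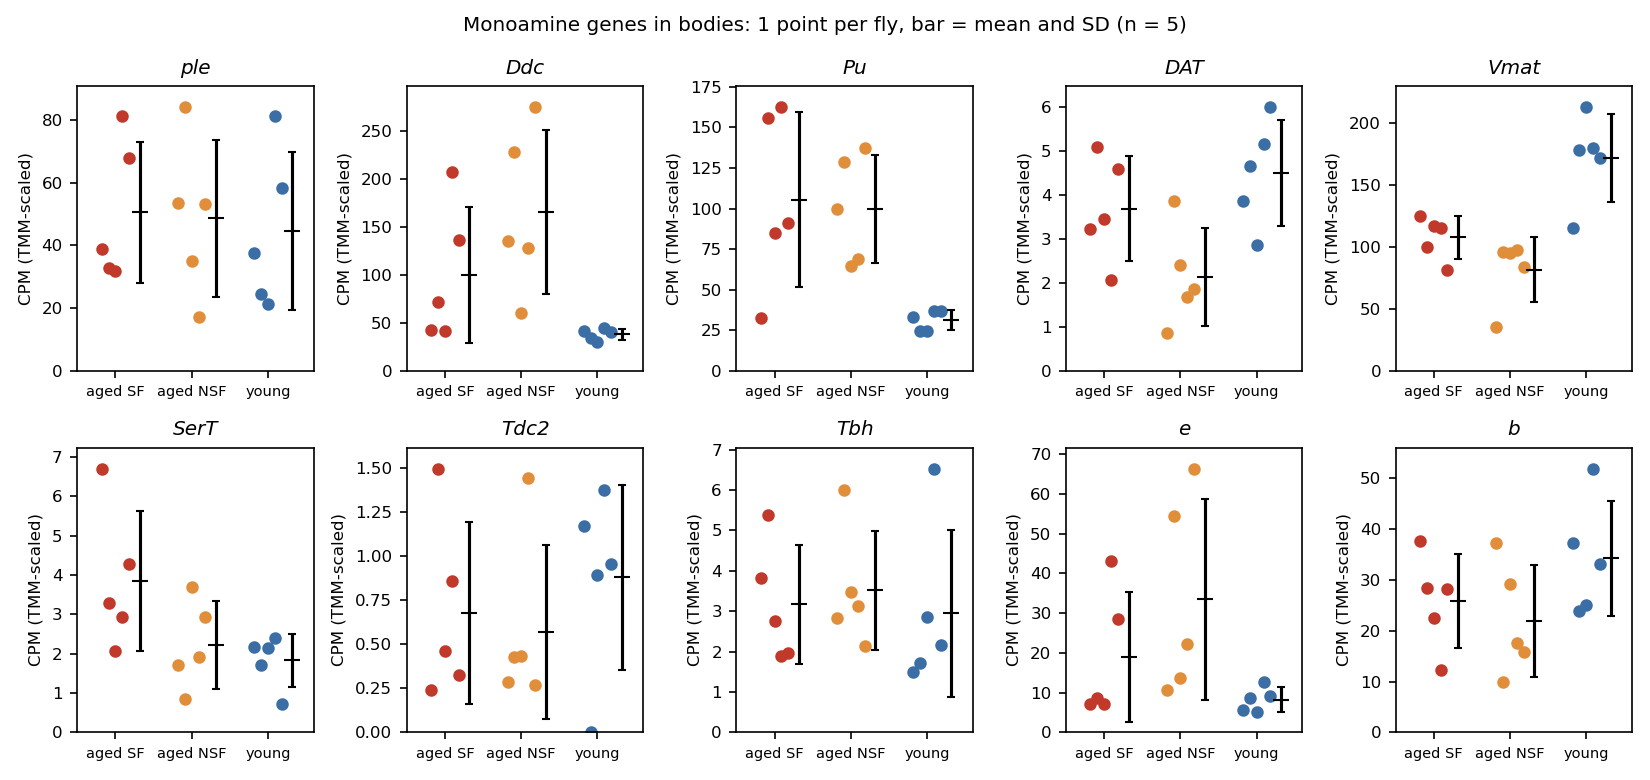
TMM-scaled CPM of the 10 genes in single bodies, drawn as for heads, with aged SF, aged NSF and young bodies along the x axis. Young bodies sit close together at 30.4 to 44.3 CPM for Ddc and 24.4 to 37.1 CPM for Pu, below nearly all aged bodies, and aged NSF body 1 at 35.5 CPM is the lowest body for Vmat.

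Vmat had 125, 99.8, 117, 116 and 81.8 CPM in aged SF bodies, 35.5, 96.1, 95.4, 97.2 and 83.7 CPM in aged NSF bodies and 115.2, 178, 213, 179.8 and 172 CPM in young bodies. All aged NSF bodies were below all young bodies; young body 1 was the lowest young one and lay within the aged SF range. Vmat fell by 1.07 ± 0.24 on the log2 scale in aged NSF over young bodies, adjusted p = 0.00309, in every alternative. In aged SF over young bodies the difference of -0.67 ± 0.23 was not called (adjusted p = 0.0684), but it was with RLE scaling (0.0457), DESeq2 (0.0199), limma voom (0.00168) or only the compared groups (0.00643), and without young body 1 (0.0230) or aged NSF body 1 (0.00299), within a range of 0.00168 to 0.165. Of Vmat's exonic length of 8134 bases, 26.2% overlaps CG13330, a gene on the opposite strand. The labels do not state whether the counting used strand, so how reads in the overlap were assigned or left out is not known.

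The levels of CG13330 and of testis markers are given beside that of Vmat. CG13330 had 71.6 to 121 CPM in aged SF bodies, 4.54 to 90.9 CPM in aged NSF bodies and 96.3 to 175 CPM in young bodies, and it fell by 1.27 ± 0.45 on the log2 scale in aged NSF over young bodies, adjusted p = 0.0354. The testis markers (Mst87F, Mst98Ca, Mst98Cb, bam, dj and topi) summed to 1567 to 2135 CPM in aged SF, 201 to 1981 CPM in aged NSF and 1566 to 3528 CPM in young bodies. The aged NSF body and the young body lowest in Vmat (body 1 of each) were also the lowest of their groups in both. Among aged SF bodies the order was another: body 1, with the lowest testis sum (1567 CPM), had the highest Vmat, and body 5, with the lowest Vmat, had a testis sum of 1885 CPM and 79.1 CPM of CG13330, above the 71.6 CPM of body 2. Of the 6 markers, 3 were lower and none higher in aged NSF over young bodies, and none was called in aged SF over young bodies. The part of testis RNA and of the overlapping gene in the fall of Vmat was not tested.

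**Figure D3:**
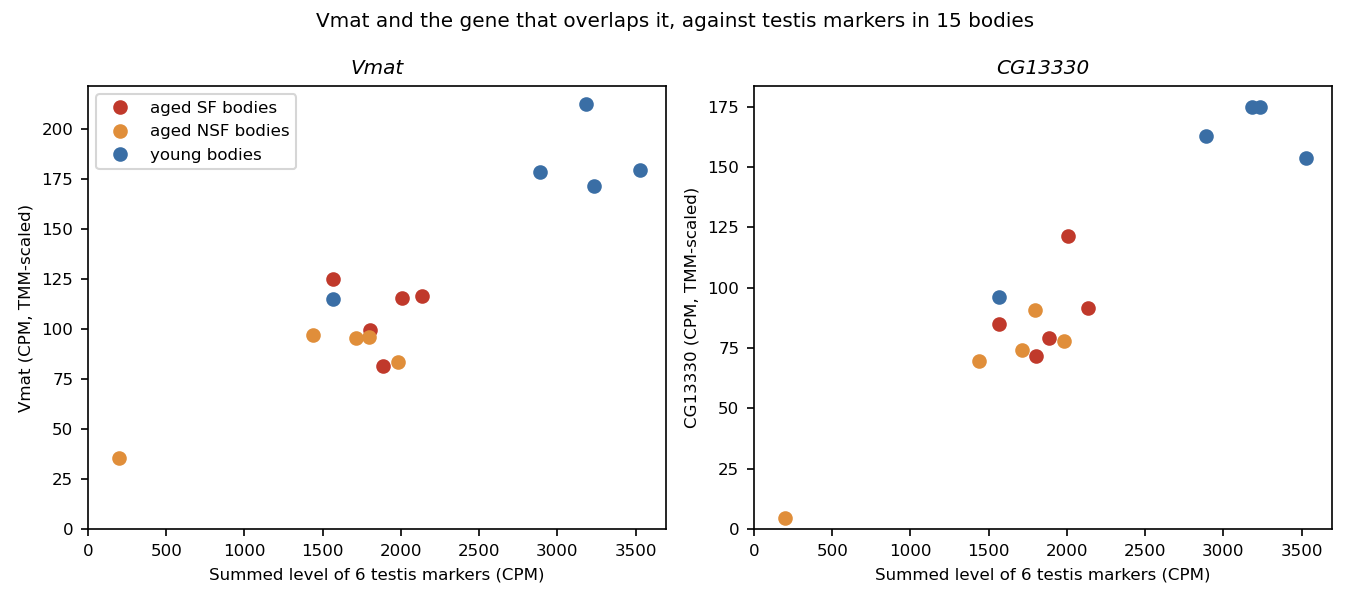
Vmat (left) and the overlapping gene CG13330 (right) in each body (y axes, TMM-scaled CPM) against the summed level of 6 testis markers in the same body (x axis, CPM), with 1 point per body coloured by group. Aged NSF body 1, with 201 CPM of testis markers and 35.5 CPM of Vmat, and young body 1, with 1566 CPM and 115.2 CPM, are the lowest of their groups on both axes of the left panel; aged SF body 1, with 1567 CPM of testis markers, has the highest Vmat of its group at 125 CPM.

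DAT was low in bodies, at 3 to 30 reads per library. Aged SF bodies had 3.23, 5.09, 3.45, 2.06 and 4.60 CPM, aged NSF bodies had 0.852, 3.86, 2.40, 1.68 and 1.87 CPM, and young bodies had 3.85, 4.67, 2.86, 5.16 and 5.99 CPM. Aged NSF body 2 overlapped with the young bodies. DAT fell by 1.10 ± 0.40 on the log2 scale in aged NSF over young bodies, adjusted p = 0.0396. That call was lost in limma voom (0.0569), with only the compared groups (0.0639) and, at 0.0623 to 0.105, without any 1 of young bodies 2, 4 and 5 or aged NSF bodies 1, 4 and 5. In aged SF over young bodies the log2 difference was -0.30 ± 0.38, adjusted p = 0.614. SerT had 2.07 to 6.70 CPM in aged SF, 0.858 to 3.70 CPM in aged NSF and 0.719 to 2.41 CPM in young bodies, from 2 to 56 reads per library. SerT was not called (log2 1.084 ± 0.45, adjusted p = 0.120, in aged SF over young bodies, where limma voom gave 0.0395 within a range of 0.0395 to 0.342). Neither b nor Tbh was called in either aged group; b was called lower (log2 -0.89, adjusted p = 0.0330) in aged NSF over young bodies without aged NSF body 1.

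Without aged NSF bodies 1 and 2, an alternative chosen after seeing the data, 4 of the 5 calls in aged NSF over young bodies held: Ddc (log2 2.004, adjusted p = 0.0175), Pu (1.52, 0.0146), e (2.06, 0.0363) and Vmat (-0.90, 0.000901). The call of DAT was lost (-1.16, 0.0626). Pu held in aged SF over young bodies (1.74, 0.00772), while Ddc was lost (1.37, 0.0742), and Vmat was then called lower (-0.69, 0.00397). Between aged SF and aged NSF bodies, none of the 9 tested genes was called by edgeR, DESeq2 or limma voom, and none had an unadjusted p under 0.05 in edgeR or DESeq2, while 2 had one in limma voom. No gene of the whole table was called by edgeR in that comparison (0% of 12009), while 2086 had an unadjusted p under 0.05 and DESeq2 and limma voom called 640 and 417. The intervals for aged SF over aged NSF bodies reached from -1.64 to 0.19 for Ddc and from -2.02 to 0.40 for e on the log2 scale.

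**Figure D4:**
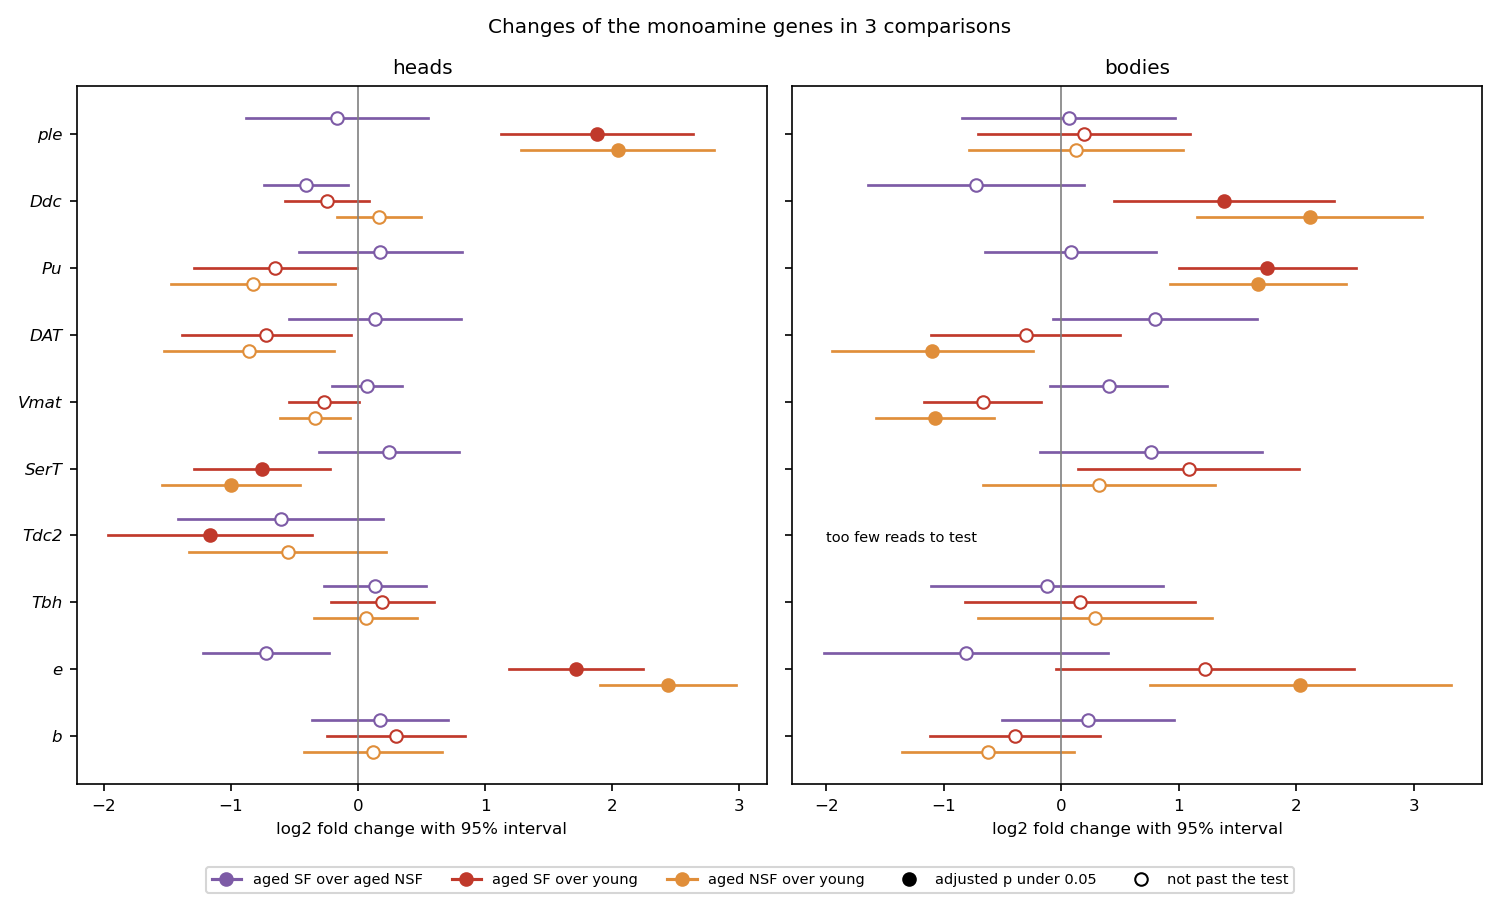
Log2 change of the 10 genes for aged SF over aged NSF, aged SF over young and aged NSF over young flies, in heads (left) and bodies (right), with 95% intervals; filled points passed the adjusted p of 0.05. Over young flies, ple (1.88 in aged SF, 2.05 in aged NSF) and e (1.71, 2.44) stand to the right in heads and Ddc (1.39, 2.11) and Pu (1.75, 1.68) in bodies, and no point of aged SF over aged NSF is filled.

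Whether age acted unequally on the tissues was tested as the log2 change in heads minus that in bodies, in 1 fit of all 30 libraries. The fit did not pair heads with bodies, since the labels do not tie their numbers to 1 fly. In the data, 13 of 15 heads correlated best with the body of their own number. Among the 10 genes 3 differed for aged SF over young flies, where 6.86% of 12318 genes did (1.62% higher in heads, 5.24% lower). For aged NSF over young flies 3 also differed, with 13.2% of genes called (4.34% higher, 8.83% lower). Pu differed in both, by -2.48 ± 0.46 for aged SF (adjusted p = 0.00125) and -2.50 ± 0.46 for aged NSF flies (adjusted p = 0.000798); it rose in bodies and was not called in heads. Ddc differed by -1.70 ± 0.49 (adjusted p = 0.0338) for aged SF and -1.95 ± 0.49 (adjusted p = 0.00977) for aged NSF flies. ple differed the other way, by 1.92 ± 0.56 for aged NSF flies (adjusted p = 0.0220), and by 1.62 ± 0.55 without a call for aged SF flies (adjusted p = 0.0744). The difference of ple for aged SF flies was called with the replicate number as a block (1.61, adjusted p = 0.00483), in DESeq2 (1.86, 0.0184) and without young body 2 (0.0391), young body 3 (0.0412) or aged SF body 4 (0.0287). SerT differed by -1.91 ± 0.49 for aged SF flies (adjusted p = 0.0146) and by -1.34 ± 0.51 without a call for aged NSF flies (adjusted p = 0.0786). For e no difference was called, with 0.42 ± 0.68 for aged SF and 0.41 ± 0.67 for aged NSF flies. No member differed in the same test of aged SF over aged NSF flies, where 0% of genes were called (1259 at an unadjusted p under 0.05, 136 by DESeq2 and 16 by limma voom).

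These tissue differences depend on the scaling. RLE moved the median of all genes up by 0.21 on the log2 scale for both age contrasts and turned the share of calls that were higher in heads to 57.8% for aged SF (23.7% with TMM) and 60.9% for aged NSF flies (32.9% with TMM). Under RLE Pu stayed called at -2.26 for aged SF and -2.29 for aged NSF flies, as did ple at 2.13 and Ddc at -1.73 for aged NSF flies and SerT at -1.71 for aged SF flies, and Vmat was called for aged NSF flies (0.97, adjusted p = 0.0209). Vmat for aged NSF flies was also called in DESeq2 (0.0101), in limma voom (0.0386) and, at 0.0134 to 0.0477, in 8 of the 30 fits that left out 1 library (aged NSF head 4, aged SF bodies 1 and 4, aged NSF body 3 and young bodies 1, 2, 3 and 5). Ddc for aged SF flies was lost under RLE (-1.48, adjusted p = 0.0753), without a filter (0.0662), and in 9 of the 30 fits that left out 1 library, at adjusted p = 0.0511 to 0.199; these were young heads 3, aged SF heads 1 and 3, young bodies 2, 3 and 5, aged SF bodies 4 and 5 and aged NSF body 3. Without young body 4, ple for aged NSF flies had an adjusted p of 0.0545. SerT for aged SF flies was lost without young body 2 (0.0603), young body 5 (0.0759) or aged SF body 1 (0.129). For aged NSF flies SerT was called without aged NSF body 2 (-1.50, adjusted p = 0.0484) and without aged NSF bodies 1 and 2 (-1.65, adjusted p = 0.0379).

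Set directly against bodies in the same unpaired fit, heads had more RNA of most of these genes. In aged SF flies 9 of 10 were higher in heads, where 65.1% of all genes were called, 20.3% higher and 44.7% lower. In aged NSF flies 9 were higher (64.5% called, 20% higher, 44.5% lower), and in young flies 8 were (70.8% called, 27.7% higher, 43.1% lower). In young flies the largest differences were those of SerT, by a log2 of 3.89 ± 0.37, Tdc2 by 3.60 ± 0.54 and Tbh by 3.46 ± 0.32. Pu at 3.27 ± 0.35 and Ddc at 2.99 ± 0.37 were close behind for their SE, so no branch is set apart by this order. Young bodies had only 3 to 13 reads of SerT, 0 to 7 of Tdc2 and 9 to 19 of Tbh per library. Only b was called in no group, with 0.02 ± 0.32 in aged SF, 0.14 ± 0.32 in aged NSF and -0.61 ± 0.32 in young flies. For ple the head exceeded the body by 1.99 ± 0.40 in aged SF (adjusted p = 7.24e-05) and 2.29 ± 0.40 in aged NSF flies (adjusted p = 1.39e-05), and by 0.37 ± 0.40 without a call in young flies (adjusted p = 0.417). For Pu the order was the other way round: 0.78 ± 0.32 in aged SF, 0.77 ± 0.32 in aged NSF and 3.27 ± 0.35 in young flies. The calls of Pu in aged flies were lost, at adjusted p = 0.0545 to 0.232, without aged SF head 2 or aged SF body 3 or 5, and without aged NSF head 1, 2 or 5 or aged NSF body 1, 3 or 4; without aged NSF bodies 1 and 2 together the adjusted p was 0.0541. The call of Vmat in young flies (0.55 ± 0.19) was lost under RLE (0.0651) and DESeq2 (0.0670) and without young body 2 (0.0564) or 5 (0.0652), and b in young flies was called lower in heads under RLE (-0.74, adjusted p = 0.0471), where the median of all genes moved by -0.13, and under DESeq2 (0.0415), the replicate block (0.0131) and the fits without young head 4 (0.0333), young body 2 (0.0405), young body 3 (0.0471) or aged SF body 4 (0.0464), within a range of 0.0131 to 0.365.

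To set the genes against each other, CPM were divided by the exonic length in kilobases. In aged SF heads Ddc (111 CPM per kb) and Pu (108) led, followed by ple (67.0), e (36.0), Vmat (31.2), b (15.7), Tbh (10.96), SerT (5.31), DAT (4.34) and Tdc2 (2.46). In aged NSF heads the order was the same, with Ddc at 148, Pu at 96.3, ple at 75.2 and e at 59.6 CPM per kb. In young heads Pu (170) was above Ddc (132), then came Vmat (37.6), ple (18.2), b (12.9) and e (10.8), and the remaining 4 lay between 5.55 and 9.68 CPM per kb. Neighbours that did not differ by more than the larger of their SDs were Ddc and Pu, Pu and ple, e and Vmat, b and Tbh, and SerT and DAT in aged SF heads; Pu, ple and e, and SerT, DAT and Tdc2 in aged NSF heads; and all genes from ple downwards in young heads. Per kilobase, ple and e thus stood above Vmat in aged heads, e in aged SF heads by less than its SD, and below it in young heads. This order depends on the length used: Vmat was divided by 8134 bases, of which 26.2% overlaps CG13330. In CPM, e was below Vmat in aged SF (113 and 254 CPM) and aged NSF heads (187 and 241 CPM). For ple and Vmat the means were 255 and 254 CPM in aged SF and 286 and 241 CPM in aged NSF heads.

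**Figure D5:**
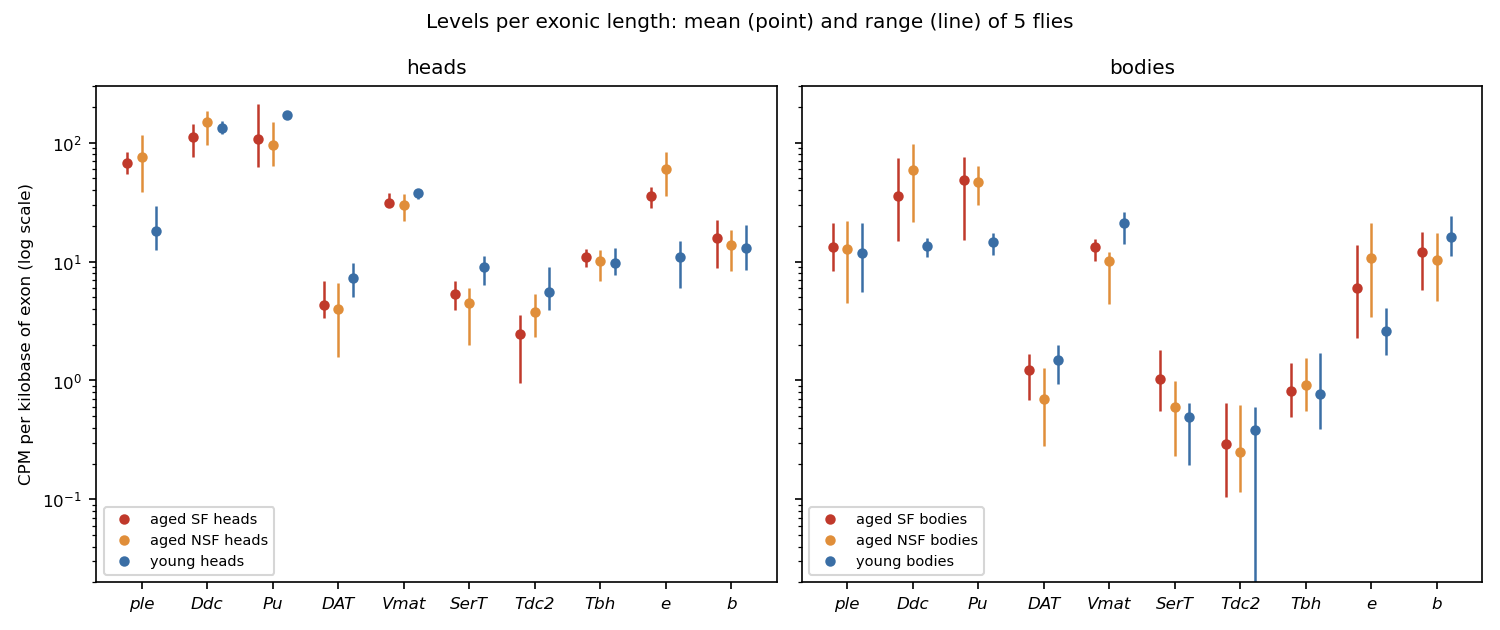
Mean level per kilobase of exonic length (CPM per kb, log axis) of the 10 genes in aged SF, aged NSF and young heads (left) and bodies (right); points are means and lines the range of 5 libraries, and the line of Tdc2 in young bodies, which reaches 0, is cut at the foot of the axis. Ddc, Pu, ple, e and Vmat lead in aged heads, and Ddc and Pu lead in aged bodies at 35.7 to 59.0 CPM per kb.

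In bodies Pu (49.0 CPM per kb) and Ddc (35.7) led in aged SF flies and Ddc (59.0) and Pu (46.4) in aged NSF flies. In young bodies the order began with Vmat (21.1), b (16.1), Pu (14.5), Ddc (13.6) and ple (11.7), whose neighbours differed by less than the larger SD. In all 3 body groups DAT, SerT, Tbh and Tdc2 were the 4 lowest, at 0.294 to 1.21 CPM per kb in aged SF, 0.248 to 0.910 in aged NSF and 0.382 to 1.48 in young bodies. Tdc2 was the lowest of the 10 in all 6 groups.

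Other genes of these pathways were read from lists of synthesis, recycling, tanning, receptor and catabolic genes. Of 8 tested genes of synthesis and its cofactor in heads, 2 were higher and 2 lower in aged SF over young heads, and 2 were lower in aged NSF over young heads. Over all genes 13% were higher and 12.2% lower in aged SF and 11.4% higher and 11.5% lower in aged NSF over young heads. In aged SF heads the cofactor regenerating dehydratase Pcd (log2 0.73, adjusted p = 0.00371) and the non-neural tyrosine decarboxylase Tdc1 (0.99, 0.0197) were higher. The tetrahydrobiopterin synthesis gene pr (-0.71, 0.0160) and the neuronal tryptophan hydroxylase Trh (now Trhn; -0.82, 0.0172), which starts serotonin synthesis, were lower. In aged NSF heads pr (-1.07, 0.000688) and the phenylalanine hydroxylase Hn (-0.81, 0.0180) were lower. Medians of the list were -0.21 in aged SF and -0.29 in aged NSF heads, beside -0.0027 and 0.016 over all genes. pr, like Pu, acts on the way to tetrahydrobiopterin.

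Of 6 tested genes listed under beta-alanine supply and recycling, 2 were lower and none higher in each aged group over young heads. t (tan), which releases amines from the conjugates that e makes, was lower by -0.48 in aged SF (adjusted p = 0.0466) and -0.98 in aged NSF heads (adjusted p = 0.000234), while e rose in both. The other was Gad1, which makes the transmitter GABA from glutamate, at -1.19 in aged SF (adjusted p = 2.63e-08) and -1.05 in aged NSF heads (adjusted p = 1.89e-07). Of 5 tested genes of the cuticle tanning and pigment list, yellow-f was higher in aged SF (1.81, 0.00211) and aged NSF heads (1.33, 0.0202). yellow-e (-1.84, 0.00374) and yellow-f2 (-0.84, 0.0116) were lower in aged NSF heads. Between aged SF and aged NSF heads, yellow-e was higher by 2.11 (adjusted p = 0.0394), and no other gene of the 7 lists was called.

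Among receptors in heads, 1 of 4 for dopamine was lower in each aged group: DopEcR, which also binds ecdysteroids, by -0.67 in aged SF (adjusted p = 0.000293) and -0.81 in aged NSF heads (adjusted p = 3.45e-05). Of 5 serotonin receptors, 5-HT1A was lower, by -0.66 in aged SF (adjusted p = 0.00902) and -0.75 in aged NSF heads (adjusted p = 0.00358). Of 8 octopamine and tyramine receptors, Oct-TyrR (-0.93, 0.0257) and Oamb (-0.48, 0.0397) were lower in aged SF over young heads and none was called in aged NSF heads; whether the 2 groups differ in them was tested directly in aged SF over aged NSF heads, where none was called. Of 3 catabolic genes, the arylalkylamine N-acetyltransferase Dat, a gene distinct from DAT, was lower by -1.29 in aged SF (adjusted p = 3.20e-05) and -1.39 in aged NSF heads (adjusted p = 1.59e-05). CG13759, annotated by its ID as AANATL7 of the same family, was lower in aged SF heads (-1.38, 0.0330). The medians of these lists in aged SF and aged NSF over young heads were -0.16 and 0.02 for beta-alanine, 0.27 and -0.03 for tanning, -0.51 and -0.20 for dopamine receptors, -0.60 and -0.63 for serotonin receptors, -0.28 and -0.11 for octopamine and tyramine receptors and -1.29 and -1.39 for the 3 catabolic genes.

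In bodies, 2 of 8 synthesis and cofactor genes were higher in aged SF and 4 in aged NSF over young bodies, with none lower. Over all genes 11.1% were higher and 3.26% lower in aged SF and 21.7% higher and 19.4% lower in aged NSF over young bodies. Tdc1 (1.12, 0.0112) and Hn (0.64, 0.0471) were those of aged SF bodies. In aged NSF bodies they were the dihydropteridine reductase Dhpr (0.99, 0.00239), Hn (0.74, 0.0116), the ple regulator Catsup (0.39, 0.0135) and Tdc1 (0.77, 0.0339). Of 5 genes of the beta-alanine list, su(r), which starts the breakdown of uracil that ends in beta-alanine, was higher in aged SF (0.72, 0.0230) and aged NSF bodies (0.95, 0.00215). CRMP of the same route was higher in aged NSF bodies (0.93, 0.00534), and Gad1 was lower by -0.62 in aged SF (adjusted p = 0.00638) and -0.43 in aged NSF bodies (adjusted p = 0.0202). Of 7 genes of the tanning and pigment list, 2 were higher and 1 lower in aged SF and 1 higher and 3 lower in aged NSF over young bodies. yellow-f was higher by 1.42 in aged SF (adjusted p = 0.0161) and 1.38 in aged NSF bodies (adjusted p = 0.00932), and the prophenoloxidase PPO2 of crystal cells was lower by -2.13 (adjusted p = 0.0201) and -4.00 (adjusted p = 0.000581) in the same groups. Medians in aged SF and aged NSF over young bodies were 0.41 and 0.36 for synthesis and cofactor genes, 0.26 and 0.29 for beta-alanine and -0.17 and -0.73 for tanning genes, beside 0.020 and 0.032 over all genes.

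Of the receptors, 1 for dopamine, 4 for serotonin and 7 for octopamine and tyramine could be tested in bodies. Among them 5-HT1B was higher (1.88, adjusted p = 0.0110) and TyrR lower (-1.01, 0.0310) in aged NSF over young bodies, and none was called in aged SF over young bodies. None of the 3 tested catabolic genes was called in either, and no gene of the 7 lists was called between aged SF and aged NSF bodies. In the test of tissue difference for aged NSF over young flies, 8 genes of the 7 lists had a change lower in heads than in bodies and 2 had one higher in heads. Over all genes 8.83% were lower and 4.34% higher in heads in this test. The shares for aged SF over young flies were 5.24% lower and 1.62% higher. Of the listed genes, those lower in heads for aged NSF flies included 3 of 9 synthesis and cofactor genes. These were Hn by -1.54 (adjusted p = 0.00164), pr by -1.41 (adjusted p = 0.00378) and Dhpr by -1.25 (adjusted p = 0.00635). Also lower were 3 of 6 genes of the beta-alanine list, CG9317 by -2.14 (adjusted p = 0.00316), CRMP by -0.83 (adjusted p = 0.0310) and Gad1 by -0.62 (adjusted p = 0.00810). The others were 1 of 5 serotonin receptors, 5-HT1B by -1.996 (adjusted p = 0.00986), and 1 of 4 catabolic genes, Dat by -1.06 (adjusted p = 0.0117). The listed genes higher in heads were 2 of 7 of the tanning and pigment list, the crystal cell gene PPO2 by 3.98 (adjusted p = 8.15e-05) and the chitin synthase kkv by 3.67 (adjusted p = 0.0336). For aged SF over young flies the change was lower in heads for Trh by -1.86 (adjusted p = 0.0229), Oct-TyrR by -2.19 (adjusted p = 0.0323), 5-HT1B by -1.78 (adjusted p = 0.0319) and Gad1 by -0.63 (adjusted p = 0.00933), and higher in heads for PPO2 by 1.89 (adjusted p = 0.0207). RLE moved the median of all genes by 0.21 in these 2 tests, and whether the calls of the listed genes hold under RLE was not examined. In the comparison of heads with bodies, all 4 dopamine receptors and all 5 serotonin receptors were higher in heads in each of the 3 groups. Of the 8 octopamine and tyramine receptors, 7, 8 and 6 were higher in heads in aged SF, aged NSF and young flies. Over all genes 20.3%, 20% and 27.7% were higher in heads in aged SF, aged NSF and young flies.

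For each member called over young flies, the genes whose log2 CPM followed it most closely were found by Pearson's r over the 15 libraries of the tissue, which include the group differences themselves. In heads, among 8586 genes, ple was followed by Act5C (r = 0.940), Spn47C (0.930) and PIG-V (0.925), and e by Tsp42Ed (0.959), fax (0.958) and Itgbetanu (0.957). SerT was followed by CG4288 (0.923), CG7781 (0.921) and CG2082 (0.921), and Tdc2 less closely by na (0.816), CR45815 (0.814) and CG34370 (0.799). In bodies, among 10480 genes, Ddc was followed by CG16712 (0.943), CG14949 (0.933) and Spn28Dc (0.931), and e by CG5493 (0.894), Spn28Dc (0.891) and GNBP2 (0.886). Pu was followed by edin (0.949), CecA1 (0.948) and CG6426 (0.947), of which edin and CecA1 encode immune-induced peptides. Vmat was followed by Trc8 (0.977), CG4955 (0.974) and CG32112 (0.967), and DAT by CG32488 (0.871), CG10984 (0.868) and CG2209 (0.856). These values describe likeness over 15 libraries only.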

How the data were processed

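The deposited count table holds raw, unnormalized counts of reads per gene. Per the series' design text, the authors trimmed adapters with Trimmomatic, mapped to dm6 with STAR, dropped alignments of mapping quality below 8 and non-primary ones, and counted reads on exons with HTSeq-count; versions, annotation and strand use are not given in the sources used here. The authors' deposited DESeq2 table holds q-values (adjusted p-values) and log2 fold changes; only its first comparison is paired with gene names, so 5 further column pairs were not used. The 10 genes and all lists were chosen with earlier results of these data known. edgeR 4.0.16 (R 4.3.3) used TMM scaling, the filterByExpr filter with groups given, and the quasi-likelihood test with robust dispersion, on 15 libraries per tissue or all 30 for tissue differences; SE is the log2 change over the root of F. Named genes are all members, up to 4 called genes per list with the smallest adjusted p, and for likeness 3 genes whose mean reached 5 CPM (prior count 2). Alternatives were RLE scaling, other filters, a 2-fold minimum, DESeq2 1.42.0, limma 3.58.1 voom, fewer groups, a replicate block, raw library totals and leaving out libraries. Coordinates come from an Ensembl annotation of BDGP6 (dm6), which held 17253 of the gene IDs. Replicates share 1 batch date, and no pair of libraries of the same group agreed within sampling noise. The lowest chi-square per degree of freedom was 4.42, for aged NSF heads 1 and 2. Pairs across groups were not compared in this way. The labels give each library as 1 isolated head or body, without naming separate cultures.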

Additional observations from a re-analysis of the deposited data

Results flagged for a closer look

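In 60 sets of 5 libraries (10 genes in 6 groups) the distance of the extreme library from its neighbour was set against the range of the set. For normally distributed values chance meets this rule in about 1 in 20 sets. Whether these CPM, some from few reads, are so distributed was not checked, so the rate need not hold here. The rule was met in 6 sets. Pu in aged SF head 2 was at 454 CPM, against 135 to 223 CPM in the other 4. DAT in aged SF head 4 was at 20.9 CPM, against 10.1 to 12.8 CPM. Vmat in aged SF head 3 was at 305 CPM, against 233 to 252 CPM. Vmat in aged NSF body 1 was at 35.5 CPM, against 83.7 to 97.2 CPM, and that body also had the lowest testis marker sum. Tdc2 in aged NSF body 4 was at 1.44 CPM, from 6 reads, against 0.267 to 0.436 CPM. Tbh in young body 4 was at 6.53 CPM, against 1.51 to 2.86 CPM.

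The age change of 4 genes differed between heads and bodies by the direct test. For aged SF over young flies the log2 change in heads minus that in bodies was -1.70 for Ddc, -2.48 for Pu and -1.91 for SerT. The value of SerT rests on few reads, 3 to 13 per young body and 9 to 56 per aged SF body. Its edgeR call was lost without aged SF body 1, which had the 56 reads (adjusted p = 0.129). For aged NSF over young flies it was 1.92 for ple, -1.95 for Ddc and -2.50 for Pu.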

How the results depend on the processing

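Apart from leaving out 1 library, each gene in each comparison was counted once per alternative, so 1 result enters several times. Tissue differences were counted only for ple, Ddc, Pu, SerT and Vmat. Of these combinations, 709 kept direction and side of the threshold, 24 gained a call and 15 lost it. Another 5, not called, turned sign. They included ple in aged NSF over young bodies (-0.13 in limma voom, -0.33 without aged NSF bodies 1 and 2) and aged SF over aged NSF bodies (-0.067 with the block). The rest were Tbh in aged SF over aged NSF bodies (0.096 without aged NSF bodies 1 and 2) and b in head over body of aged SF flies (-0.11 in limma voom). The number of members called in aged NSF over young heads was 3, and 5 in DESeq2 and in limma voom; in aged SF over young bodies it was 2, and 1 with no filter or with the block, and 3 in DESeq2 and with only the compared groups (Vmat gained) and in limma voom (Vmat and SerT gained, Ddc lost); in aged SF over aged NSF heads it was 0, and 1 with the block. Causes were not tested. Over all genes, a 2-fold minimum left 913 in aged SF and 883 in aged NSF over young heads and 610 and 2610 in bodies. Aged SF over aged NSF heads had 23 called genes, and 56 with no filter, 88 in DESeq2, 43 in limma voom, 63 with the block and 36 with only the compared groups. In bodies it had 0, and 5 with RLE or the 5 CPM filter, 1 with no filter or the block, 640 in DESeq2, 417 in limma voom and 205 without aged NSF bodies 1 and 2. Aged SF over young bodies had 1727, and 4265 in limma voom, 3369 with only the compared groups and 3402 without aged NSF bodies 1 and 2. Tissue differences of aged SF over aged NSF numbered 0, and 136 in DESeq2, 16 in limma voom, 3 with the block and 12 without those bodies; those of aged SF over young numbered 845, and 1464 in limma voom.

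Leaving out 1 library gave 2 to 4 members called in aged SF over young heads, 1 to 2 in aged SF over young bodies, and, for tissue differences, 1 to 3 in aged SF and 2 to 4 in aged NSF over young flies. It gave 9 to 61 genes in aged SF over aged NSF heads, 0 to 250 in the same bodies, 1087 to 3391 in aged SF over young bodies, and 422 to 1026, 991 to 1885 and 0 to 13 tissue differences of aged SF over young, aged NSF over young and aged SF over aged NSF. Log2 differences that were not called and turned sign ranged as follows. In aged NSF over young heads Tbh had -0.022 to 0.18 and b -0.0071 to 0.36. In aged SF over aged NSF heads ple had -0.33 to 0.045, Pu -0.21 to 0.38, DAT -0.095 to 0.39 and Vmat -0.020 to 0.15. In aged NSF over young bodies ple had -0.12 to 0.47. For aged SF over young bodies ple had -0.047 to 0.50 and Tbh -0.085 to 0.59. For aged SF over aged NSF bodies ple had -0.19 to 0.30, Pu -0.13 to 0.31 and Tbh -0.37 to 0.077. In head over body b had -0.15 to 0.35 in aged SF and -0.035 to 0.40 in aged NSF flies.

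Levels from raw library totals stayed within 1 SD of the scaled mean for 58 of 60 gene and group pairs. The block used the replicate number, which the labels do not tie to 1 fly. Within a tissue, same-numbered libraries of different groups correlated at -0.042 to 0.15 in heads, over 0.1 in 3 of 15 pairs (other numbers 3 of 60), and -0.12 to 0.43 in bodies, over 0.1 in 5 of 15 pairs (other numbers 10 of 60). The number was not taken as a pairing, since not every pair passed 0.1; the 3 pairs of bodies numbered 1 correlated at 0.148, 0.245 and 0.431, and body 1 had the lowest testis marker sum of each group. Head and body of 1 group and number correlated at 0.048 to 0.28, over 0.1 in 11 of 15 pairs, and 13 of 15 heads correlated best with the body of their own number, a hint from the data and not the design. With the block the members called numbered 4 in aged SF and 4 in aged NSF over young heads and 5 in aged NSF over young bodies. At 13 to 83 reads per head for DAT and 5 to 45 for Tdc2, counting error limits what can be seen. The same holds at 3 to 30 reads per body for DAT and 2 to 56 for SerT, and Tdc2 could not be tested in bodies.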
